A study of Saccharomyces cerevisiae with 12 samples.

Results

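The measure described here is the strain difference of the chemostat response in Saccharomyces cerevisiae: chemostat minus batch in YSBN2, less chemostat minus batch in CEN.PK 113-7D, for each probe set of an Affymetrix yeast array. All 12 arrays of the study entered it, and it was computed for all 5716 probe sets without any filter. A negative value means that the chemostat level, relative to batch, was lower in YSBN2 than in CEN.PK 113-7D, whether because a transcript rose less or because it fell further. YSBN2 is labelled as a prototrophic strain of FY background that carries a pair of disrupted ho alleles, ho::Ble/ho::HphMX4, and no ploidy or mating type is stated for it. CEN.PK 113-7D is labelled as a prototroph of mating type a. The 4 groups were YSBN2 in chemostat, YSBN2 in batch, CEN.PK 113-7D in chemostat and CEN.PK 113-7D in batch, each with 3 biological replicates and 1 array per replicate. All cultures were aerobic, at 30 °C and pH 5.0 in 4 L bioreactors. The chemostats received 7.5 g/L glucose and 0.3 g/L ethanol and were diluted at 0.1 per h, and the batches started from 30 g/L glucose, so feed, growth rate and residual sugar changed together. The labels give no time of harvest for the batches, and each strain is a single genotype.

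Batch-grown yeast ferments abundant glucose, which represses genes for respiration, for the use of other carbon sources and for storage carbohydrates. In a slow glucose-limited chemostat this repression is lifted and stress and storage genes are induced. Separate circuits report on phosphate, through the factor Pho4, on the quality of the nitrogen source, through the GATA factors of nitrogen catabolite repression, and on mating type, so a difference between strains can arise in either culture and in any of these circuits.

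Levels are log2 signals, on which 1 unit is a 2-fold change, with a floor near 2 below which no level is measured. HO, the switching endonuclease gene disrupted in YSBN2, was looked at first. Its signal was 2.38, 2.11 and 2.11 in YSBN2 chemostats and 2.39, 2.39 and 2.30 in YSBN2 batches, against 11.46, 11.78 and 11.59 in CEN.PK 113-7D chemostats and 12.62, 12.55 and 12.46 in CEN.PK 113-7D batches. The arrays of the strains do not overlap, and the HO strain difference of 0.77 ± 0.15 (SE, adjusted p = 0.0071) is the fall of 0.93 in CEN.PK 113-7D against a floor in YSBN2. YSBN2 batch replicate 3 was unlike its group: 196 of its probe sets lay 2 or more units from the mean of its fellow replicates, against 2 to 77 in the other arrays. Results that rest on it are given with and without it.

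Of the 5716 probe sets, 882 (15.4%) had a strain difference at a limma adjusted p under 0.05 and are named as called from here on. The response was lower in YSBN2 for 634 of them (11.1%) and higher for 248 (4.34%). At least 2-fold differences made up 468 of the calls, 78 higher and 390 lower, and 133 exceeded 8-fold. The strains' responses ran broadly together, with a Pearson correlation of 0.841 and a Spearman correlation of 0.809 over all probe sets, which are not independent and share arrays. Taken alone, the chemostat response was called for 52.6% of probe sets in YSBN2 and 56.1% in CEN.PK 113-7D. Among the 1987 probe sets that changed at least 2-fold in at least one strain, 588 were called for the strain difference. The median strain difference over all probe sets was -0.05. Placing all arrays on a common median moved it by 0.15 and quantile normalization by 0.13, and the share of calls that were higher then became 45.9% and 50.7%, against 28.1% as deposited. The direction of differences smaller than that shift is therefore not settled by these data.

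**Figure D1:**
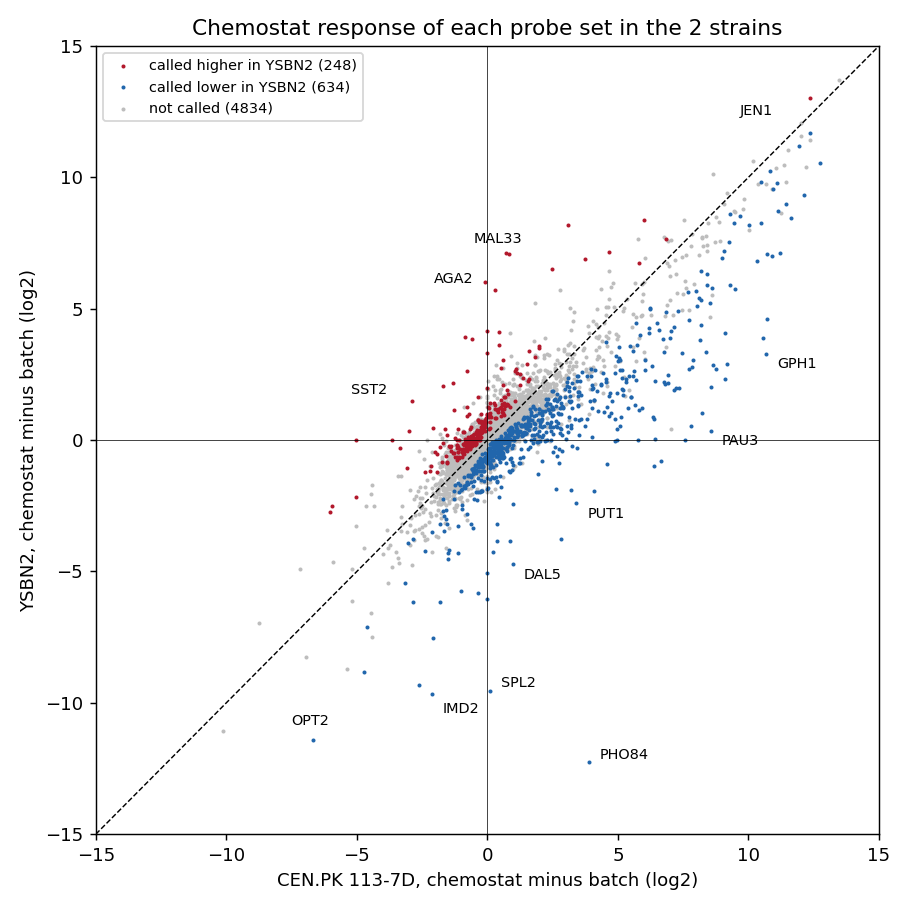
Each point is a probe set, with chemostat minus batch in YSBN2 on the vertical axis and in CEN.PK 113-7D on the horizontal axis, both in log2 units, and the dashed line marks equal responses. The 248 probe sets called higher in YSBN2 lie above the line and the 634 called lower lie below it, with PHO84 farthest from it at -16.15.

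The largest class of calls, 267 probe sets, rose in both strains but less in YSBN2, by a median of 1.71 in YSBN2 and 3.52 in CEN.PK 113-7D. A further 141 were called up in CEN.PK 113-7D and were not called in YSBN2, with median responses of 0.06 in YSBN2 and 1.5 in CEN.PK 113-7D. Falls made the other lower calls: 100 fell in YSBN2 without a call in CEN.PK 113-7D, 77 fell in both strains and more in YSBN2, and 48 went down in YSBN2 but up in CEN.PK 113-7D. Among the higher calls 84 fell in CEN.PK 113-7D without a call in YSBN2, 60 rose in YSBN2 without a call in CEN.PK 113-7D, 50 rose in both and more in YSBN2, and 42 fell in both and less in YSBN2. The reverse crossing, up in YSBN2 and down in CEN.PK 113-7D, was found for 11.

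**Figure D2:**
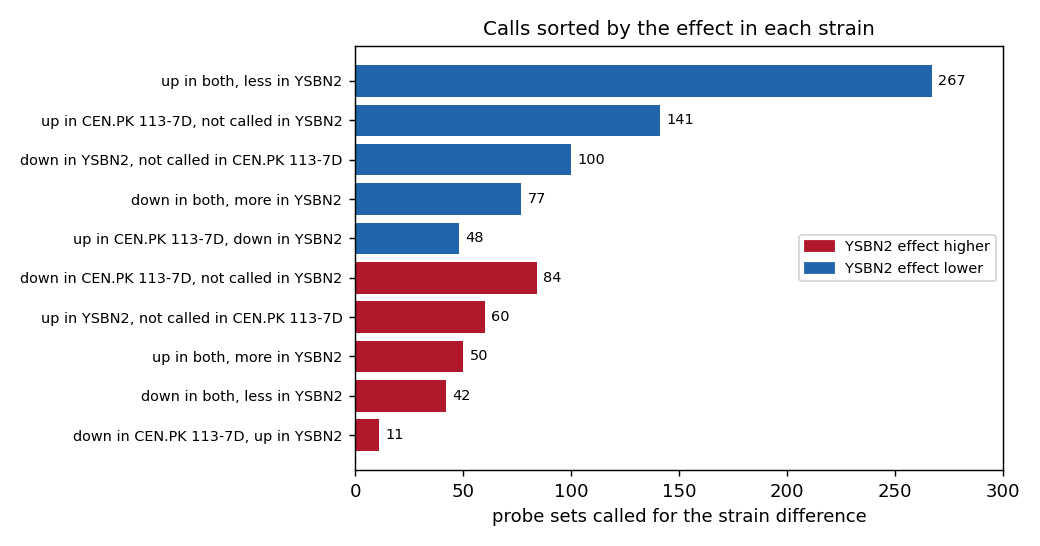
Bars give the number of probe sets called for the strain difference, sorted by whether chemostat minus batch was called up or down in each strain; blue bars have the lower response in YSBN2 and red bars the higher one. The longest bar holds the 267 probe sets that rose in both strains but less in YSBN2, and 2 probe sets called in neither strain alone are not drawn.

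The culture in which the strains differed was also counted. YSBN2 minus CEN.PK 113-7D was called higher for 18.5% and lower for 10.5% of all probe sets in batch, and higher for 12.9% and lower for 15.3% in the chemostat. Of the 634 lower calls, 275 had a higher YSBN2 level in batch and no strain call in the chemostat. Another 196 had a lower YSBN2 level in the chemostat and no strain call in batch, and 64 had both. Of the 248 higher calls, 116 had a higher YSBN2 level in the chemostat alone and 75 a lower YSBN2 level in batch alone. These counts use the same arrays as the strain difference and only describe where it lay.

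Phosphate genes held the largest single difference. PHO84, the high-affinity phosphate transporter gene, read 2.43, 2.78 and 1.85 in YSBN2 chemostats and 14.48, 14.92 and 14.46 in YSBN2 batches. In CEN.PK 113-7D it read 5.61, 6.75 and 6.46 in chemostats and 1.86, 2.53 and 2.78 in batches. The gene was thus near the top of the scale in YSBN2 batch alone and moved in opposite directions in the strains, for a strain difference of -16.15 ± 0.50 (adjusted p = 8.1e-08), or -9.03 (adjusted p = 1.3e-07) with every value under 6 raised to 6 (a floor of 6). SPL2, an inhibitor of low-affinity phosphate uptake, was above the floor only in YSBN2 batch, at 12.18, 13.27 and 10.44, and its 9 other arrays lay between 2.32 and 2.62. Its difference was -9.64 ± 0.77 (adjusted p = 6.2e-05), or -5.96 with the raised values.

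Of the 23 measured genes listed here as targets of Pho4, 13 were called lower, 0 higher and 10 were not called, with a median strain difference of -0.80 against -0.05 for all genes. The 13 include PHO3, an acid phosphatase gene counted through the list alone and with another pattern. It was low only in CEN.PK 113-7D batches, at 4.58, 6.01 and 6.57, and its YSBN2 change of -0.28 was not called. The PHO3 difference of -2.86 ± 0.84 (adjusted p = 0.048) kept its call in 2 of the 12 fits that leave out 1 array. The list has a median response of -0.31 in YSBN2 and 0.32 in CEN.PK 113-7D. Beyond the naming rule, and chosen after their values were seen, PHO8 (vacuolar alkaline phosphatase) gave -1.71 ± 0.18, PHO11 (secreted acid phosphatase, whose probes may also pick up near-identical genes) -2.59 ± 0.55, and the polyphosphate synthesis genes VTC3 and VTC4 -1.85 ± 0.36 and -1.08 ± 0.19. For VTC3 the arrays were 11.32, 11.48 and 11.29 in YSBN2 chemostats and 13.25, 13.77 and 12.52 in YSBN2 batches, against 11.87, 11.56 and 11.70 in CEN.PK 113-7D chemostats and 11.68, 11.71 and 11.61 in CEN.PK 113-7D batches. Only the YSBN2 batch arrays stand clear of the rest. PHO5, the main secreted acid phosphatase and also chosen after its values were seen, did not follow: it lay at 8.98, 9.75 and 9.15 in YSBN2 chemostats and 8.93, 9.50 and 9.47 in YSBN2 batches, and at 2.06 to 2.09 in all CEN.PK 113-7D arrays, and its response was not called in either strain. None of the 6 genes of phosphate signalling and low-affinity uptake was called. With quantile normalization 7 of the 23 genes listed as Pho4 targets were called lower and their median was -0.48, and with a common array median 10 and -0.64. Without the third YSBN2 chemostat array 8 of them were called lower, and without the third YSBN2 batch array 15.

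Genes under nitrogen catabolite repression, which are kept low while a preferred nitrogen source is present, also differed. Of 34 measured, 17 were called lower and 2 higher, with a median of -0.89, and the median response was -0.42 in YSBN2 and 0.38 in CEN.PK 113-7D. DAL5, the allantoate and ureidosuccinate permease gene, read 9.99, 10.18 and 10.03 in YSBN2 chemostats and 14.83, 14.83 and 14.70 in YSBN2 batches. In CEN.PK 113-7D it read 10.17, 9.89 and 10.03 in chemostats and 9.04, 9.20 and 8.94 in batches. The chemostats of the strains overlapped while the batches lay 5.73 apart, and the strain difference was -5.69 ± 0.14 (adjusted p = 1.9e-08). PUT1, proline oxidase, read 11.36, 11.62 and 11.31 in YSBN2 chemostats and 14.23, 14.29 and 12.99 in YSBN2 batches, against 12.87, 12.76 and 12.78 in CEN.PK 113-7D chemostats and 9.25, 9.57 and 9.35 in CEN.PK 113-7D batches. It fell by 2.41 in YSBN2 and rose by 3.41 in CEN.PK 113-7D (difference -5.82 ± 0.42, adjusted p = 2.9e-05).

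The proline permease gene PUT4 was high in 3 of the groups, at 12.19, 12.42 and 12.57 in YSBN2 chemostats, 12.36, 12.10 and 11.09 in YSBN2 batches and 12.44, 13.13 and 13.08 in CEN.PK 113-7D chemostats. Only its CEN.PK 113-7D batch arrays were low, at 3.62, 5.21 and 6.45 (difference -7.25 ± 0.87, adjusted p = 0.00067). DUR3, the urea transporter gene, had a like pattern and a difference of -7.38 ± 0.63, or -4.68 with a floor of 6. DAL80, a GATA repressor gene of the same circuit that was chosen after its values were seen, had a different one: it read 13.28, 13.18 and 12.23 in YSBN2 batches and 8.58, 9.22 and 9.40 in YSBN2 chemostats, while all CEN.PK 113-7D arrays lay at 4.42 or below. The higher calls were the ammonium permease gene MEP3 (1.56 ± 0.24), which fell in CEN.PK 113-7D alone by 1.80, and the GABA permease gene UGA4 (3.69 ± 0.98, adjusted p = 0.032). The UGA4 call was lost in 10 of the 12 fits that leave out 1 array, all but those without the third CEN.PK 113-7D chemostat or the third YSBN2 batch array, with an adjusted p of up to 0.08, and its difference was 1.83 with values under 6 raised to 6. The list had 4 higher and 20 lower calls without the third YSBN2 batch array, and 4 higher calls with a common array median or quantile normalization. Over all 5449 genes higher calls were 560, 384 and 510 in these fits, against 228.

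Peptide and amino acid uptake differed by gene rather than as a block. Among 19 permease genes listed here under the SPS amino acid sensor, 7 were called lower and 1 higher. Their median of -0.23 was -0.07 with a common array median and -0.09 with quantile normalization, and -0.35 without the first CEN.PK 113-7D chemostat array. GNP1, the glutamine permease gene, was at 2.52, 2.73 and 2.48 in YSBN2 chemostats and 9.72, 9.48 and 11.10 in YSBN2 batches, against 10.19, 10.17 and 10.36 in CEN.PK 113-7D chemostats and 12.56, 12.37 and 12.06 in CEN.PK 113-7D batches. It fell in both strains and further in YSBN2 (difference -5.43 ± 0.50, adjusted p = 0.00012). Its YSBN2 chemostat arrays were near the floor, and the difference was -2.01 (adjusted p = 0.027) with values under 6 raised to 6. PTR2, the di- and tripeptide transporter gene, fell by 1.91 in YSBN2 and rose by 3.19 in CEN.PK 113-7D (difference -5.09, or -2.38 with a floor of 6). In YSBN2 only the third batch array of PTR2, at 7.14, read above 6. AGP2, also on the list, rose by 2.49 in YSBN2 and by 6.93 in CEN.PK 113-7D (difference -4.44 ± 0.42, or -3.19 with a floor of 6). OPT2, an oligopeptide transporter gene that is not on the list, was at the floor in all 6 chemostats, at 1.96 to 2.12. In batches it read 13.44, 13.59 and 13.41 in YSBN2 against 8.36, 8.45 and 9.29 in CEN.PK 113-7D (difference -4.73 ± 0.29, adjusted p = 1e-05). The higher call of the list, the branched-chain permease gene BAP3 (3.64 ± 0.22), rested on values under 6 and was lost when they were raised to 6 (0.04, adjusted p = 0.62). Of 65 amino acid biosynthesis genes 16 were called lower and 2 higher, with a median of -0.23. With a common array median those counts were 10 and 3 and the median -0.08, while 6 were higher without the third YSBN2 batch array and 5 with quantile normalization. Over all 5449 genes higher calls went from 228 to 560 and 510 in the last 2 fits, so genes at large gained calls too.

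IMD2, an IMP dehydrogenase gene of guanine nucleotide synthesis, read 3.61, 3.42 and 3.29 in YSBN2 chemostats and 13.27, 12.95 and 13.14 in YSBN2 batches. The CEN.PK 113-7D values were 9.26, 9.65 and 10.06 in chemostats and 11.79, 11.65 and 11.91 in batches. It fell by 9.68 in YSBN2 and by 2.13 in CEN.PK 113-7D (difference -7.55 ± 0.26, adjusted p = 1.4e-07, or -4.99 with a floor of 6). Its probe set may also read the closely related IMD genes, of which the other measured ones on the list were not called.

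Among lists of at least 15 measured genes, storage carbohydrate and stress genes had the largest shares of lower calls. Of 23 genes of trehalose and glycogen metabolism, 14 were called lower and 1 higher, and the median response was 1.96 in YSBN2 and 4.06 in CEN.PK 113-7D, with a median strain difference of -1.37. GPH1, glycogen phosphorylase, read 14.59, 14.63 and 14.41 in YSBN2 chemostats and 11.31, 11.56 and 10.93 in YSBN2 batches, against 13.71, 13.58 and 13.63 in CEN.PK 113-7D chemostats and 3.10, 2.83 and 2.93 in CEN.PK 113-7D batches. Its smaller rise in YSBN2 lay in the batch level, which was 8.31 above that of CEN.PK 113-7D (strain difference -7.41 ± 0.21, adjusted p = 5.5e-08, or -4.36 with a floor of 6). The phosphoglucomutase gene PGM2 (-5.25 ± 0.45) and the trehalose synthase subunit gene TSL1 (-3.47 ± 0.62) had the same pattern, with YSBN2 batch levels 5.97 and 4.08 above CEN.PK 113-7D and chemostat levels without a strain call. The exception was PIG1, a putative targeting subunit of the glycogen-directed phosphatase, which rose by 3.40 in YSBN2 and by 1.61 in CEN.PK 113-7D.

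Among 32 heat shock and general stress genes 19 were called lower and 0 higher, with median responses of 0.89 in YSBN2 and 2.02 in CEN.PK 113-7D. SSA3, a stress-induced Hsp70 gene, read 11.43, 11.56 and 11.87 in YSBN2 chemostats and 10.35, 10.31 and 10.19 in YSBN2 batches, against 14.50, 14.96 and 14.46 in CEN.PK 113-7D chemostats and 8.72, 9.35 and 8.86 in CEN.PK 113-7D batches. Here the strains parted in both cultures, with YSBN2 minus CEN.PK 113-7D at -3.02 in the chemostat and 1.31 in batch (difference -4.33 ± 0.27, adjusted p = 1.2e-05). HSP30, a plasma membrane stress protein gene, did likewise, at 10.36, 10.85 and 10.86 in YSBN2 chemostats and 5.44, 5.44 and 7.32 in YSBN2 batches, and 13.78, 14.06 and 13.50 in CEN.PK 113-7D chemostats and 2.98, 3.13 and 3.10 in CEN.PK 113-7D batches. Its difference was -6.09 ± 0.62 (adjusted p = 0.00025), or -3.53 with a floor of 6. SSE2, an Hsp110 gene, rose by 5.81 in CEN.PK 113-7D, while its YSBN2 change of 1.15 was not called (difference -4.66 ± 0.76). DCS2, a stress-induced regulator of mRNA decapping, rose by 2.87 in YSBN2 and 8.65 in CEN.PK 113-7D.

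Vacuolar protease and autophagy genes gave 12 lower and 1 higher call of 31, with a median of -0.86. AMS1, the vacuolar mannosidase gene, rose by 2.79 in YSBN2 and 7.83 in CEN.PK 113-7D. The aminopeptidase gene APE1 crossed over, at 11.26, 11.57 and 11.38 in YSBN2 chemostats and 13.97, 13.82 and 13.69 in YSBN2 batches, and at 12.88, 12.88 and 12.74 in CEN.PK 113-7D chemostats and 11.62, 11.93 and 11.97 in CEN.PK 113-7D batches. It fell by 2.42 in YSBN2 and rose by 1.00 in CEN.PK 113-7D, and no group overlapped another in the same strain. Oxidative stress genes had 10 lower and 2 higher calls of 29, with the methionine sulfoxide reductase gene MXR1 higher at 1.05 ± 0.20. The catalase gene CTT1, lower at -2.92 ± 0.25, lost its call with values under 6 raised to 6 (adjusted p = 0.43).

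**Figure D3:**
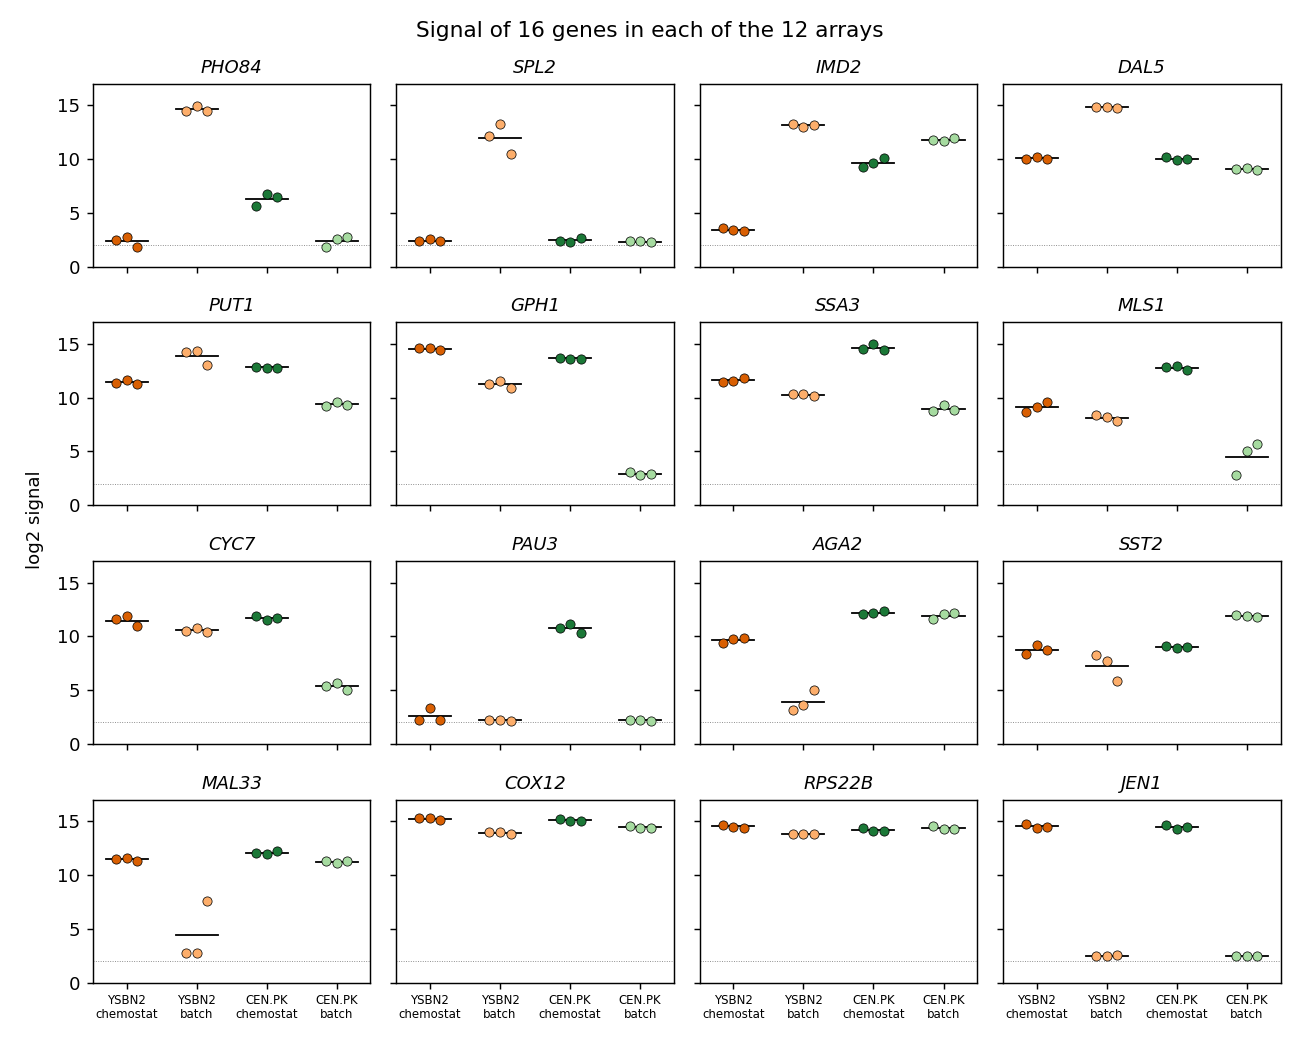
Points are the log2 signals of 16 genes in the 3 arrays of each group, from left to right YSBN2 chemostat, YSBN2 batch, CEN.PK 113-7D chemostat and CEN.PK 113-7D batch; black bars are group means and the dotted line is the floor near 2. PHO84 and SPL2 are high only in YSBN2 batch and GPH1 is low only in CEN.PK 113-7D batch. The points of JEN1, a gene picked for its small strain difference, coincide between the strains.

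Genes of gluconeogenesis, the glyoxylate cycle and acetate use had mostly lower calls. Of 28 such genes 12 were called lower and 1 higher, and their median response was 4.74 in YSBN2 and 6.96 in CEN.PK 113-7D. MLS1, malate synthase, read 8.71, 9.11 and 9.62 in YSBN2 chemostats and 8.40, 8.16 and 7.82 in YSBN2 batches, against 12.81, 12.90 and 12.56 in CEN.PK 113-7D chemostats and 2.77, 5.09 and 5.73 in CEN.PK 113-7D batches. The YSBN2 response of 1.02 was not called, while CEN.PK 113-7D rose by 8.22 (difference -7.21 ± 0.89, adjusted p = 0.00079). The ammonium and acetate exporter family gene ATO2 started from the floor in both batches, at 2.32 or below, and reached 10.13, 10.23 and 11.06 in YSBN2 chemostats against 13.49, 13.88 and 13.79 in CEN.PK 113-7D chemostats (difference -3.16 ± 0.32). The acetate permease gene ADY2 was the higher call, at 0.66 ± 0.12, from rises of 13.01 in YSBN2 and 12.36 in CEN.PK 113-7D. The activator gene CAT8 (-2.32 ± 0.44) lost its call with values under 6 raised to 6 (0.04, adjusted p = 1). In the peroxisomal list 7 of 27 were called lower and 0 higher, with the thiolase gene POT1 at -2.38 ± 0.14, and 4 were lower without the first or the second YSBN2 chemostat array.

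Hexose phosphorylation and lower glycolysis showed isoform differences. HXK1, the glucose-repressed hexokinase, read 15.60, 15.60 and 15.64 in YSBN2 chemostats and 13.38, 13.70 and 14.08 in YSBN2 batches, against 15.27, 15.31 and 15.39 in CEN.PK 113-7D chemostats and 6.11, 9.18 and 9.26 in CEN.PK 113-7D batches. Both strains ended near the top of the scale, and YSBN2 started 5.54 higher in batch (strain difference -5.25 ± 0.98, adjusted p = 0.007). The glucokinase gene GLK1 gave -3.00 ± 0.36 in the same direction. TDH1, a glyceraldehyde phosphate dehydrogenase isoform chosen after its values were seen, fell by 0.44 in YSBN2 and rose by 2.53 in CEN.PK 113-7D (difference -2.97 ± 0.16, adjusted p = 3.7e-06). Of the 20 glycolysis genes 5 were called lower and 1 higher, and the list's median of -0.11 became 0.04 with a common array median, so it has no settled direction. Of 21 genes of glucose repression and its regulators 6 were lower and 1 higher.

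In the TCA cycle 7 of 16 genes were lower and 0 higher, with a median of -0.39. The succinyl-CoA ligase gene LSC2 (-1.21 ± 0.12) and the ketoglutarate dehydrogenase gene KGD2 (-0.76 ± 0.14) rose in both strains and less in YSBN2. With a common array median 2 of the 16 were called and the median was -0.24, and 4 were called without the second or the third CEN.PK 113-7D chemostat array or the first YSBN2 chemostat array. The respiratory chain and ATP synthase ran the other way, with 11 of 37 genes called higher, 3 lower and a median of 0.21, from median responses of 1.06 in YSBN2 and 0.75 in CEN.PK 113-7D.

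COX12, a cytochrome c oxidase subunit gene, read 15.27, 15.27 and 15.15 in YSBN2 chemostats and 13.99, 14.01 and 13.84 in YSBN2 batches, against 15.17, 15.02 and 15.06 in CEN.PK 113-7D chemostats and 14.51, 14.39 and 14.34 in CEN.PK 113-7D batches. The chemostat levels overlapped and the batch levels did not, and the strain difference was 0.61 ± 0.11 (adjusted p = 0.0055). COX7, another subunit, gave 0.76 ± 0.15. The 3 lower calls were CYC7, COX5B and NDI1, and the first pair are the hypoxic isoforms of cytochrome c and of oxidase subunit V rather than aerobic subunits. The NDI1 call, of the internal NADH dehydrogenase, was lost without the first YSBN2 chemostat array (adjusted p = 0.05). The respiratory median was 0.36 with a common array median and 0.18 with quantile normalization, where the medians over all genes were 0.10 and 0.07. The count of higher calls was 17 without the third YSBN2 batch array. It was 5 without the second CEN.PK 113-7D or second YSBN2 chemostat array, 6 without the third CEN.PK 113-7D chemostat, the second YSBN2 batch or the first YSBN2 chemostat array, and 7 without the first CEN.PK 113-7D batch array.

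Genes repressed by oxygen through Rox1 and related hypoxic genes had 14 lower and 2 higher calls of 33. Their median of -0.77 was -0.42 with quantile normalization and -0.43 without the first CEN.PK 113-7D batch array. CYC7 read 11.62, 11.86 and 10.93 in YSBN2 chemostats and 10.52, 10.78 and 10.42 in YSBN2 batches, against 11.92, 11.51 and 11.71 in CEN.PK 113-7D chemostats and 5.41, 5.66 and 5.00 in CEN.PK 113-7D batches (difference -5.46 ± 0.35, adjusted p = 1.5e-05). Chemostat levels of CYC7 overlapped between the strains, and only CEN.PK 113-7D batch was low. PAU3, a seripauperin gene on a probe set that may also read its many close relatives, was at 10.73, 11.19 and 10.29 in CEN.PK 113-7D chemostats, while its 9 other arrays lay between 2.16 and 3.30. That difference was -8.19 ± 0.42 (adjusted p = 2.6e-06), or -4.74 with a floor of 6. Both higher calls, PAU4 and ANB1, were lost with values under 6 raised to 6 (adjusted p = 0.28 and 1).

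Enzymes and pumps of fusel and weak acids moved apart as well. Of 16 Ehrlich pathway genes, which turn amino acids into fusel alcohols and acids, 8 were lower and 0 higher. ARO10, a phenylpyruvate decarboxylase, read 2.29, 5.80 and 4.19 in YSBN2 chemostats and 2.05 to 2.06 in YSBN2 batches, against 10.98, 10.45 and 10.47 in CEN.PK 113-7D chemostats and 2.05 to 2.07 in CEN.PK 113-7D batches. It was well above the floor only in CEN.PK 113-7D chemostats (difference -6.54 ± 0.95, adjusted p = 0.002). BAT2, the cytosolic branched-chain aminotransferase, fell by 1.29 in YSBN2 and rose by 1.94 in CEN.PK 113-7D (difference -3.23 ± 0.23). PDR12, the weak acid exporter gene, read 9.71, 10.13 and 9.56 in YSBN2 chemostats and 13.69, 13.75 and 13.49 in YSBN2 batches, against 13.65, 13.79 and 13.64 in CEN.PK 113-7D chemostats and 12.76, 12.73 and 12.93 in CEN.PK 113-7D batches. Here the YSBN2 chemostat arrays were the low ones (difference -4.73 ± 0.20, adjusted p = 6.3e-07). Of the remaining genes that crossed over, FDC1, a ferulic acid decarboxylase, fell by 1.86 in YSBN2 and rose by 2.61 in CEN.PK 113-7D. The drug and cation exporter gene QDR2 fell by 1.95 in YSBN2 and rose by 4.09 in CEN.PK 113-7D, with YSBN2 higher in both cultures (difference -6.03, or -2.39 with a floor of 6).

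**Figure D4:**
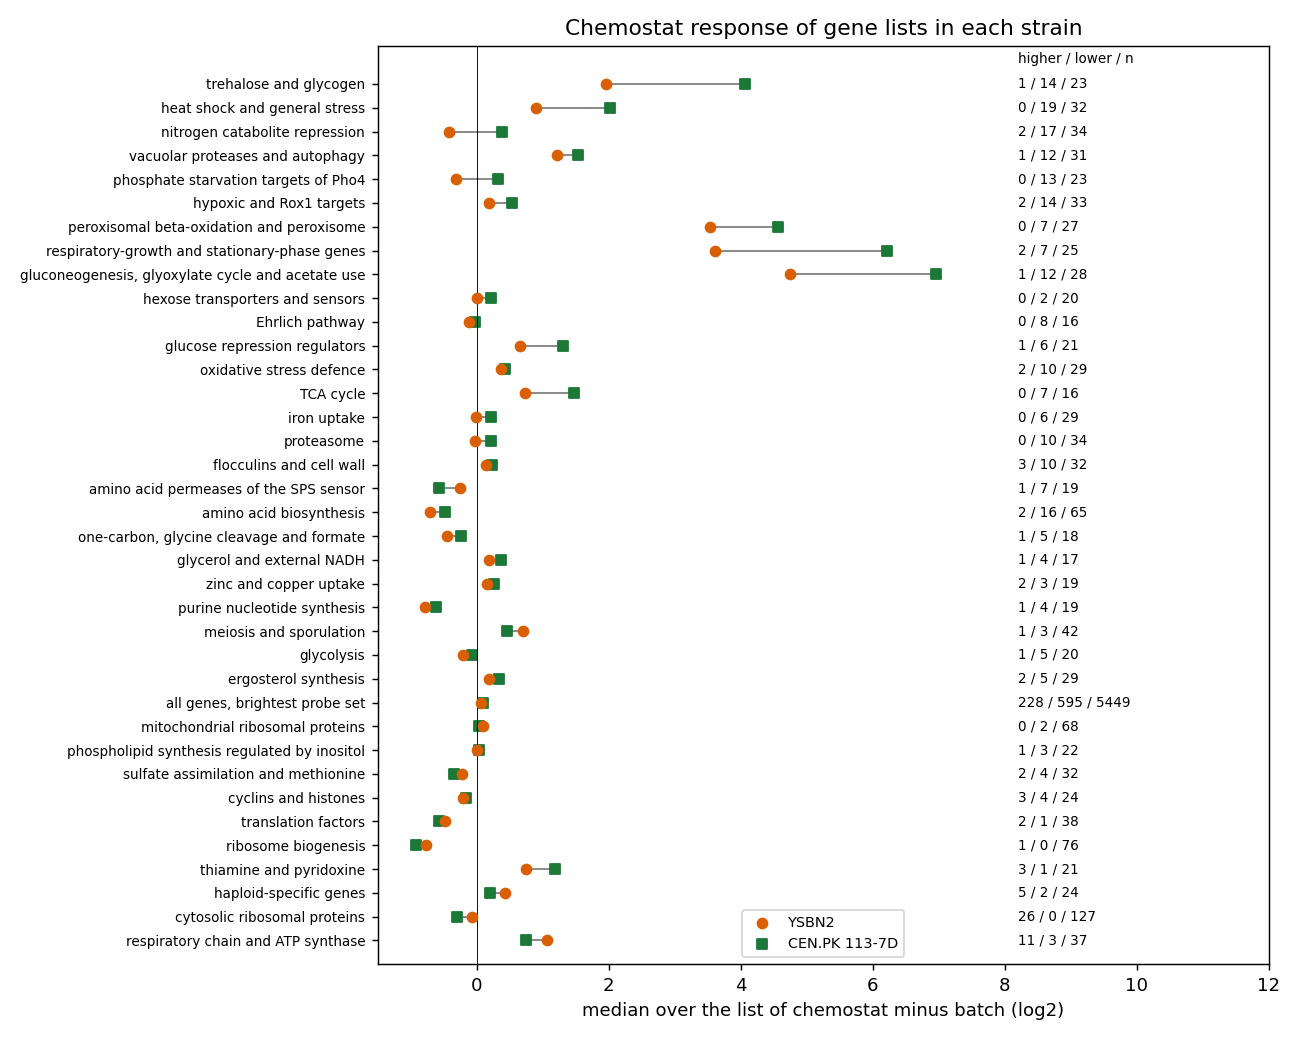
For each gene list with at least 15 measured genes, circles give the median of chemostat minus batch in YSBN2 and squares that in CEN.PK 113-7D, in log2 units, and the numbers at the right are genes called higher, genes called lower and genes measured. Lists are ordered by the median of the per-gene strain differences, from trehalose and glycogen at -1.37 to the respiratory chain at 0.21, and that median need not equal the distance between the 2 symbols.

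Cytosolic ribosomal protein genes were the largest list with calls in the higher direction only, 26 of 127, with a median of 0.20. Over all probe sets 4.34% were called higher. In the separate responses 30 of the 127 were called down and 1 up in YSBN2, where 21.9% of all probe sets were called down, and 97 down and 0 up in CEN.PK 113-7D, where 22.2% were. RPS22B, a small subunit protein gene, read 14.65, 14.50 and 14.37 in YSBN2 chemostats and 13.79, 13.81 and 13.84 in YSBN2 batches, against 14.41, 14.11 and 14.07 in CEN.PK 113-7D chemostats and 14.55, 14.26 and 14.26 in CEN.PK 113-7D batches. It rose by 0.70 in YSBN2, and its CEN.PK 113-7D change of -0.16 was not called (difference 0.86 ± 0.17, adjusted p = 0.0084). The many duplicated genes of this list may share probes with near-identical copies. With a common array median the list's median was 0.35 and with quantile normalization 0.15, with 35 and 17 higher calls. Over all 5449 genes the medians were then 0.10 and 0.07, with 384 and 510 higher calls against 228 as deposited. With values under 6 raised to 6, 41 of the list and 261 of all genes were called higher. The 26 calls became 10 to 13 without the first or second YSBN2 chemostat array, the second YSBN2 batch array, the second or the third CEN.PK 113-7D chemostat array or the first CEN.PK 113-7D batch array, and 17 without the third CEN.PK 113-7D batch array.

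Ribosome biogenesis genes, which fell in the chemostat by medians of 0.77 in YSBN2 and 0.92 in CEN.PK 113-7D, had 1 higher and 0 lower call of 76. Without the third YSBN2 batch array 26 of the 76 were called higher and the median was 0.42 in place of 0.09, while without the second YSBN2 batch array it was -0.12. Translation factors changed likewise, from 2 higher calls of 38 to 9, and mitochondrial ribosomal proteins from 0 higher calls of 68 to 10, when the third YSBN2 batch array was left out. Over all 5449 genes higher calls then went from 228 to 560, so genes at large gained calls too. The counts of these 3 lists therefore depend on that array. Proteasome genes had 10 lower and 0 higher calls of 34 and a median of -0.33, with the base subunit gene RPN1 at -0.62 ± 0.11. With a common array median 1 was called and the median was -0.17, and with quantile normalization 5 were called. Without the first YSBN2 chemostat, the second YSBN2 batch or the second or the third CEN.PK 113-7D chemostat array 5 were, or 6 without the second CEN.PK 113-7D batch array.

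Mating genes were checked against the labelled mating type. In CEN.PK 113-7D, labelled as mating type a, the alpha-factor receptor gene STE2 lay between 12.84 and 14.33 over all 6 arrays and the a-factor gene MFA2 between 14.00 and 15.12, while the alpha-factor gene MF(ALPHA)1 lay between 2.29 and 4.47. The alpha-cell genes STE3 and SAG1 were not at the floor there, with 8.81, 9.13 and 9.78 for STE3 in CEN.PK 113-7D chemostats. The 7 a-specific genes were lower in YSBN2 than in CEN.PK 113-7D, by medians of -3.50 in the chemostat and -7.59 in batch, and 6 of the 7 rose in YSBN2 chemostats relative to batch, where 30.6% of all probe sets were called up. Of the 7 a-specific genes 5 were called higher for the strain difference and 0 lower, with a median of 3.39, or 2.06 with quantile normalization.

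AGA2, the binding subunit of a-agglutinin, read 9.37, 9.72 and 9.80 in YSBN2 chemostats and 3.15, 3.58 and 5.04 in YSBN2 batches, against 12.10, 12.21 and 12.33 in CEN.PK 113-7D chemostats and 11.59, 12.04 and 12.14 in CEN.PK 113-7D batches. It rose by 5.71 in YSBN2 while the CEN.PK 113-7D change of 0.29 was not called (difference 5.42 ± 0.57, adjusted p = 3e-04, or 3.34 with a floor of 6). The a-factor gene MFA1 (2.20 ± 0.32) and its exporter gene STE6 (3.39 ± 0.51) were called in all 12 fits that leave out 1 array. MFA2 (4.78 ± 1.24, adjusted p = 0.029) read 6.22, 4.82 and 9.27 in YSBN2 batches, and STE2 (3.51 ± 0.89, adjusted p = 0.028) read 6.35, 5.31 and 8.45, so the third array was the highest for both. Their calls were lost in 9 of the 12 fits. MFA2 kept its call only without the second or the third YSBN2 batch array or the third YSBN2 chemostat array (adjusted p up to 0.072 in the others), and STE2 only without the same batch arrays or the first YSBN2 chemostat array (up to 0.066). Without the third YSBN2 batch array the list had 6 higher calls, and 3 without each array whose removal ends both calls.

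None of the 4 alpha-specific genes was called. MF(ALPHA)1 read 8.37, 9.30 and 9.01 in YSBN2 chemostats and 3.54, 3.82 and 7.06 in YSBN2 batches (difference 3.20 ± 1.17, adjusted p = 0.11, or 4.33 and 0.0017 without the third YSBN2 batch array). Genes expressed in haploids of either type gave 5 higher and 2 lower calls of 24, while 17 were not called and the median was 0.13. For this list YSBN2 minus CEN.PK 113-7D had medians of -1.92 in the chemostat and -2.53 in batch. SST2 and FUS1, described next, both lay in the higher direction and do not stand for the list. SST2, which dampens pheromone signalling, read 8.36, 9.16 and 8.76 in YSBN2 chemostats and 8.27, 7.71 and 5.86 in YSBN2 batches, against 9.07, 8.90 and 9.05 in CEN.PK 113-7D chemostats and 12.02, 11.87 and 11.77 in CEN.PK 113-7D batches. It rose by 1.48 in YSBN2 (adjusted p = 0.034) and fell by 2.88 in CEN.PK 113-7D (difference 4.35 ± 0.72, adjusted p = 0.0036). The size of the YSBN2 rise leans on the third batch array, the lowest of its group. Without that array the SST2 strain difference was 3.64 (adjusted p = 0.00015). The cell fusion gene FUS1 (4.45 ± 0.65, or 2.20 with a floor of 6) rose in YSBN2 alone. In these bulk cultures a change in the share of cells of a mating type and a change of RNA per cell cannot be told apart.

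Cell cycle and wall genes gave calls in both directions. Of 24 cyclin and histone genes 3 were higher and 4 lower, with a median of 0.06, where 4.34% and 11.1% of all probe sets were called so. The list had 2 lower calls without the second or the third CEN.PK 113-7D chemostat array. In those fits 462 and 483 of all 5716 probe sets were lower, against 634 with all arrays. CLB2, the main mitotic cyclin gene, read 10.55, 10.56 and 10.52 in YSBN2 chemostats and 9.98, 10.22 and 10.89 in YSBN2 batches, against 8.81, 8.87 and 9.14 in CEN.PK 113-7D chemostats and 10.30, 10.46 and 10.63 in CEN.PK 113-7D batches. It fell by 1.53 in CEN.PK 113-7D alone (difference 1.71 ± 0.29, adjusted p = 0.0043). The G1 cyclin gene CLN1 rose by 1.78 in CEN.PK 113-7D, and its YSBN2 change of 0.05 was not called (difference -1.73 ± 0.18). The daughter-cell separation genes DSE2 (0.86 ± 0.18) and SCW11 (0.75 ± 0.15) were higher. Of the 32 cell wall genes 10 were lower and 3 higher, with the glucan synthase gene GSC2 at -3.12 ± 0.26 and the mannoprotein gene TIP1 at -4.83 ± 1.11. The count of lower wall genes was 5 without the second CEN.PK 113-7D chemostat array and 6 without the first or the third YSBN2 chemostat array.

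Sugar uptake and use differed by locus. MAL33, a maltose activator gene, read 11.52, 11.55 and 11.30 in YSBN2 chemostats and 2.80, 2.80 and 7.56 in YSBN2 batches, against 12.03, 11.97 and 12.22 in CEN.PK 113-7D chemostats and 11.30, 11.15 and 11.27 in CEN.PK 113-7D batches. Only YSBN2 batch was low (difference 6.23 ± 1.47, adjusted p = 0.02), and replicate 3 there read well above the others. The difference was 7.81 (adjusted p = 1e-08) without that array, 4.10 (adjusted p = 0.00098) with values under 6 raised to 6, and lost its call without the second CEN.PK 113-7D chemostat array (adjusted p = 0.051). The maltose and trehalose transporter gene MAL11 rose in both strains and less in YSBN2, at 6.93, 8.46 and 6.53 in YSBN2 chemostats against 11.59, 11.58 and 11.71 in CEN.PK 113-7D chemostats, with batches at 4.64 or below (difference -5.03 ± 0.86, adjusted p = 0.0042). The invertase gene SUC2 gave -1.81 ± 0.28. Of the 20 hexose transporter and sensor genes 2 were lower (10% of the list, against 11.1% of all probe sets) and 0 higher. HXT9, a hexose transporter gene near the floor, gave -1.99 ± 0.44 and lost its call with values under 6 raised to 6 (adjusted p = 1). HXT5, a transporter induced at low glucose, gave -0.75 ± 0.11, or -0.44 with those values, after rises of 11.18 in YSBN2 and 11.94 in CEN.PK 113-7D. Without the third YSBN2 batch array 5 of the 20 were lower and 2 higher, where 844 and 560 of all 5449 genes were.

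HXT2, which encodes a high-affinity hexose carrier and was picked with its values in view, shows how 1 array can decide a result. It read 13.24, 13.24 and 13.16 in YSBN2 chemostats and 4.26, 4.21 and 14.04 in YSBN2 batches, against 14.85, 14.69 and 14.63 in CEN.PK 113-7D chemostats and 11.89, 12.13 and 11.84 in CEN.PK 113-7D batches. The difference was 2.94 ± 3.03 (adjusted p = 0.58) over all arrays and 6.21 (adjusted p = 2.5e-08) without the third YSBN2 batch array. NRG1, a glucose repressor gene chosen the same way, gave 3.37 ± 1.01 (adjusted p = 0.052), or 2.31 (adjusted p = 0.00055) without that array.

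Smaller groups were mixed. Over all 5449 genes 15.1% were called, 595 lower and 228 higher. The shares called were 20.7% for iron uptake, 33.3% for the one-carbon list, 29.4% for glycerol, 19% for thiamine and pyridoxine and 24.1% for ergosterol. Of 29 iron uptake genes 6 were lower and 0 higher, with the mannoprotein gene FIT3 at -1.62 ± 0.36. In the one-carbon list 5 of 18 were lower and 1 higher, with formate dehydrogenase, FDH1, at -2.23 ± 0.19 from the floor in both batches. Of 17 glycerol genes 4 were lower and 1 higher, with the mitochondrial glycerol phosphate dehydrogenase gene GUT2 at -2.41 ± 0.49. Among 21 thiamine and pyridoxine genes 3 were higher and 1 lower, or 8 higher without the third YSBN2 batch array or with quantile normalization. Higher calls over all genes were 560 without that array and 510 with quantile normalization. On the thiamine list the pyridoxine gene SNZ3 gave 1.37 ± 0.18, and the pyrimidine synthesis gene THI13 gave 0.96 ± 0.20, or -1.45 with a floor of 6, and both may also pick up near-identical genes. Among the 29 ergosterol genes 5 were lower and 2 higher, or 3 lower with a common array median, with quantile normalization, or without the first or the third CEN.PK 113-7D batch, the first or second CEN.PK 113-7D chemostat, the second YSBN2 batch or the first or the third YSBN2 chemostat array, with ERG28, a scaffold of the sterol enzymes, at 1.01 ± 0.21 and the sterol regulator gene UPC2 at -1.04 ± 0.23. SEO1, a putative permease gene, was at 1.93 to 1.94 in all CEN.PK 113-7D arrays, and read 11.29, 11.59 and 11.02 in YSBN2 chemostats and 6.05, 6.85 and 8.56 in YSBN2 batches (difference 4.14 ± 0.71, adjusted p = 0.0042).

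Many of the largest responses were not called for a strain difference. Of 81 probe sets that changed by 6 units or more in the same direction in both strains, 29 were called for the difference (35.8%, against 15.4% of all probe sets), and the others were not. The 5 genes below had the smallest strain difference among 24 of the 81 with a gene name and a standard error under 0.3. Their small differences therefore follow from the choice. JEN1, the lactate and pyruvate permease gene, read 14.78, 14.41 and 14.46 in YSBN2 chemostats and 2.45, 2.45 and 2.53 in YSBN2 batches, against 14.62, 14.31 and 14.50 in CEN.PK 113-7D chemostats and 2.45, 2.47 and 2.44 in CEN.PK 113-7D batches. The groups of like culture overlapped, and the difference was 0.05, with a 95% interval from -0.29 to 0.40 (adjusted p = 0.88). The respiratory growth gene RGI2 gave 0.23 (0.03 to 0.43, adjusted p = 0.13), CRF1, a corepressor gene of ribosomal protein genes, -0.30 (-0.84 to 0.25), the acyl-CoA oxidase gene POX1 -0.47 (-0.84 to -0.11, adjusted p = 0.087) and the meiotic gene CSM4 0.57 (0.18 to 0.95, adjusted p = 0.055). These intervals are not adjusted for the number of probe sets, and since all 5 genes lay near the floor in batch they compare mainly the chemostat levels.

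Among the arrays left out singly, the third YSBN2 batch array moved the number of calls most. Leaving out 1 of the other 11 arrays gave 593 to 855 calls, and leaving out that one gave 1482, of which 586 were higher and 896 lower. Of the 882 calls, 860 were also made without it, 0 of them with another sign, and 622 further probe sets were called. In every one of the 12 fits that leave out 1 array 553 probe sets were called, 118 higher and 435 lower. Of the 882, 705 had all 4 group means at 6 or above, as did 85.3% of all probe sets, and 824 were also called with values under 6 raised to 6.

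**Figure D5:**
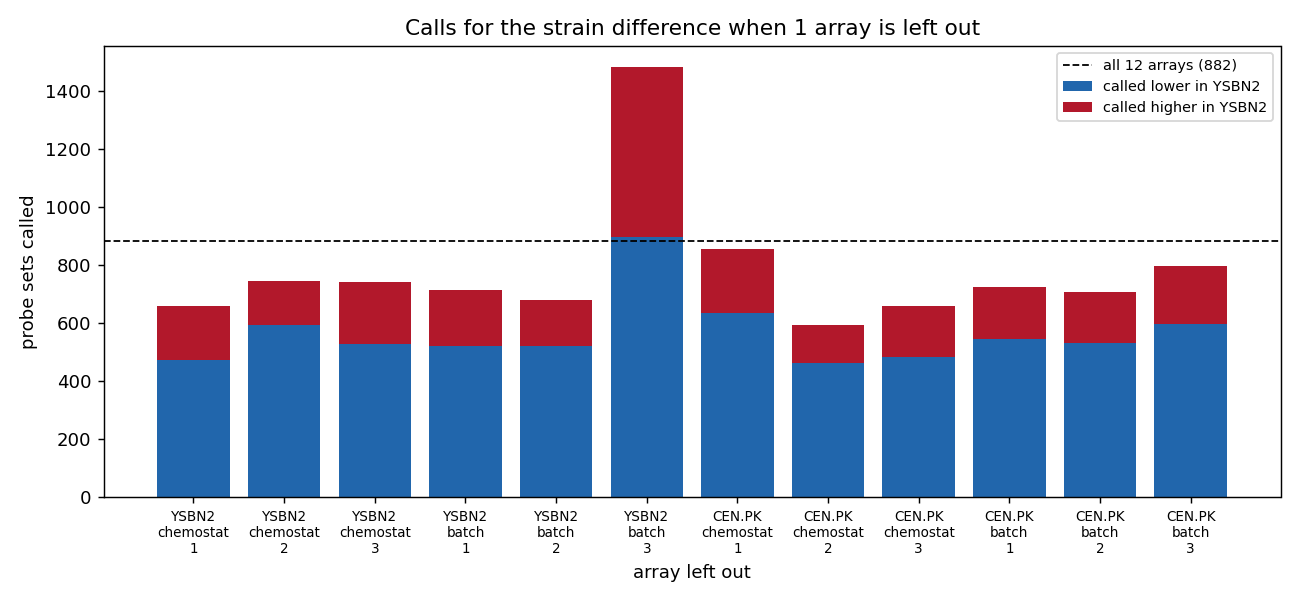
Bars give the number of probe sets called for the strain difference when the named array is left out, split into those lower (blue) and higher (red) in YSBN2, and the dashed line is the 882 calls with all 12 arrays. The bar without the third YSBN2 batch array reaches 1482, and the other 11 lie between 593 and 855.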

How the data were processed

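Total RNA from 12 cultures was labelled with biotin and hybridized to Affymetrix yeast arrays, per the labels. The authors' deposited values were read as log2 signals, from 1.69 to 16.2; the base is not stated. R 2.6, affy and RMA are named in the submitters' processing notes, without order or settings, and no scanner files were used here. Array medians ran from 11.02 to 11.37. The number of arrays limits the precision.

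limma 3.58.1 in R 4.3.3 was fitted to all 5716 probe sets with 1 mean per group (8 residual and 1.34 prior degrees of freedom), and the interaction contrast was tested with eBayes and Benjamini-Hochberg adjustment over all probe sets at 0.05. Of the probe sets 5498 were named through RefSeq R64. The gene lists use the brightest probe set of each of 5449 genes. On simulated data 18%, 46%, 72% and 92% of log2 differences of 0.5, 1, 2 and 3 were recovered, with 5.79% of calls false. There 50 probe sets were changed at each size among 5716, against 882 called in the data, so these rates need not hold for this contrast.

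The comparison and the gene lists were chosen with earlier results of these data known. Named genes are the 15 largest positive and 15 largest negative differences called with all arrays, with values under 6 raised to 6 and without YSBN2 batch replicate 3, ranked with the raised values. The next are 8 genes with opposite responses, as many as 3 called genes of every list in each direction (any member where 15 or fewer were measured) and HO. The last are the 5 genes with the smallest strain difference among large, like responses with a standard error under 0.3. Genes picked with their values in view are marked as such.

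The alternatives tried were other array scalings, filters on dim probe sets, raised floors, other eBayes settings, array weights, a replicate block, stricter thresholds and leaving out arrays.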

Additional observations from a re-analysis of the deposited data

Results flagged for a closer look

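The chemostat response differed between YSBN2 and CEN.PK 113-7D, by limma's test of the difference itself, for 882 of 5716 probe sets, and 59 of them had called responses of opposite sign. The 8 genes named from those 59 follow. PHO84, the high-affinity phosphate transporter gene, differed by -16.15, QDR2, an exporter gene, by -6.03 and PUT1, proline oxidase, by -5.82. PTR2, the peptide transporter gene, differed by -5.09, FDC1, a decarboxylase gene, by -4.47, APE1, a vacuolar aminopeptidase gene, by -3.42 and BAT2, an aminotransferase gene, by -3.23. Each of those 7 went down in YSBN2 and up in CEN.PK 113-7D. SST2, a regulator of pheromone signalling, differed by 4.35, or by 3.64 without YSBN2 batch replicate 3. With all arrays it went up in YSBN2 and down in CEN.PK 113-7D. With values under 6 raised to 6, PHO84 differed by -9.03, QDR2 by -2.39 and PTR2 by -2.38, while PUT1 kept -5.82. FDC1 then differed by -3.89, and its CEN.PK 113-7D batch arrays were spread, at 4.97, 5.31 and 7.69. The sizes for PHO84, QDR2, PTR2 and, less so, FDC1 thus rest partly on signals under 6. The direction within a strain rests on such signals too. For PTR2 only the third batch array (7.14) read above 6 in YSBN2. For PHO84 and QDR2 the CEN.PK 113-7D chemostat arrays lay between 5.50 and 7.05 and the batch arrays at 2.78 or below. All 8 were called for the strain difference in each of the 12 fits that leave out 1 array, which does not test the direction in each strain.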

How the results depend on the processing

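With all arrays 882 probe sets were called, 248 higher and 634 lower, and 59 had opposite called responses. With array weights, which gave YSBN2 batch replicate 3 a weight of 0.112, these counts were 1974, 741, 1233 and 123. At an adjusted p under 0.01 they were 407, 76, 331 and 24, and with treat at 1.5-fold 240, 28, 212 and 8, as a stricter threshold gives. Without the 50% dimmest probe sets 532 were called and 358 were lower. With values under 6 raised to 6 and without YSBN2 batch replicate 3 the counts were 1484, 590 higher and 95 opposite. The common median gave 409 higher and 483 lower calls and quantile normalization 537 and 523, where 2 of the 882 calls had another sign. Of the 882 calls, 729 were made again in the same direction with the common median and 711 with quantile normalization. Fits that leave out 1 array gave 593 to 1482 calls, 131 to 586 higher, 462 to 896 lower and 44 to 96 opposite. Higher calls were 586 without YSBN2 batch replicate 3, 152 without YSBN2 chemostat replicate 2, 159 without YSBN2 batch replicate 2 and 131 without CEN.PK 113-7D chemostat replicate 2. Cyclic loess, a floor of 4 or 6, trend and robust settings, 1 probe set per gene and dropping the 25% dimmest probe sets left all 4 counts within 1.5 times. Among the named genes, GDH3, a glutamate dehydrogenase gene, turned from -3.17 to 0.34 (not called), CAT8 from -2.32 to 0.04, THI13 from 0.96 to -1.45 and ANB1 from 0.66 to 0.00 with values under 6 raised to 6, and to 0.28 for GDH3, 0.15 for CAT8, -1.45 for THI13 and 0.00 for HXT9 (-1.99 with all values) when YSBN2 batch replicate 3 was left out as well. Those genes have group means under the raised floor. For the other changes the cause was not tested.

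The labels give replicate numbers but no shared day or batch. Deviations of same-numbered arrays correlated at 0.5, 0.28 and 0.31 between CEN.PK 113-7D chemostat and batch, and in no other pair of groups were all 3 over 0.1. Replicate 1 of the chemostat groups correlated at 0.6. In that CEN.PK 113-7D pair 5 of 6 arrays matched their own number best, as did 5 of 6 between YSBN2 chemostat and CEN.PK 113-7D batch, against 2 to 4 elsewhere. Some shared replicate structure may thus exist, but the labels name none and no pairing was taken. A replicate block over all 12 arrays gave 963 calls, 275 higher, 688 lower and 74 opposite, and a replicate block within strain gave 771, 200, 571 and 64. A planned search of promoters for motifs was not run, because no sequences were used here. Signals near the floor limit the size of the differences: 177 of the 882 calls had a group mean under 6, where 85.3% of all probe sets had all group means at 6 or above.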

Other observations

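Several of the largest positive differences fell on genes that are on no list used here and whose function is little known. YIL046W-A was above the floor only in YSBN2 chemostats, at 7.91, 9.49 and 7.42, and its 9 other arrays lay between 2.19 and 2.6 (difference 6.10 ± 0.59, adjusted p = 0.00018, or 2.27 with a floor of 6). YER053C-A read 12.67, 12.61 and 12.15 in YSBN2 chemostats and 6.70, 6.66 and 2.73 in YSBN2 batches, against 14.04, 13.82 and 13.71 in CEN.PK 113-7D chemostats and 13.32, 13.16 and 12.97 in CEN.PK 113-7D batches. Only YSBN2 batch was low (difference 6.41 ± 1.24, adjusted p = 0.0081). HUA2 had the same pattern with closer replicates, at 9.00, 9.74 and 9.42 in YSBN2 chemostats and 5.85, 5.71 and 5.79 in YSBN2 batches, and between 8.61 and 9.92 in all CEN.PK 113-7D arrays (difference 3.16 ± 0.37, adjusted p = 0.00052). YDL241W fell in both strains, by 2.51 in YSBN2 and by 5.96 in CEN.PK 113-7D.

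Of the 882 calls 834 lay on probe sets named for 1 gene and 48 on probe sets without a gene name here.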
